A study of Caenorhabditis elegans with 4 samples.

Results

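The genes described here encode the enzymes that activate fatty acids and shorten them by beta-oxidation in Caenorhabditis elegans, a nematode worm. They were chosen by symbol from the annotation of the array probes: every probe with a single gene symbol in the families acs, acdh, acox, ech, hacd, kat, cpt and maoc, together with dhs-28 and daf-22. This gave 62 probes for 59 genes, of 14943 genes with a probe of their own. RNA from 4 preparations (preps) of wild-type adults was hybridised on 4 two-colour arrays, 1 per prep, together with a mixed RNA of the wild type that served as reference. Channel 2 always carried the adult RNA and channel 1 the mixed RNA, whose make-up the labels leave unstated. The labels give neither the strain nor the age of the adults, and they do not say whether each prep came from its own culture. The p-values therefore measure the spread between these preps.

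Fatty acids are first joined to coenzyme A by acyl-CoA synthetases, and carnitine acyltransferases pass the long chains into mitochondria. Each round of beta-oxidation then takes 4 steps, namely a first oxidation, a hydration, a second oxidation and a thiolysis that releases acetyl-CoA. The first oxidation is carried out by acyl-CoA dehydrogenases in mitochondria and by acyl-CoA oxidases in peroxisomes. In worms the peroxisomal pathway also trims the side chains of ascarosides, the small-molecule pheromones that control dauer entry. The intestine is the main site of fat storage in this animal, which has no separate adipose tissue.

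The deposited values are log2 ratios, 1 for each probe and array. A positive ratio is read here as likely higher in the adults, since the numerator is not stated and the adult RNA lies in channel 2. The channels were never swapped, so for any gene an effect of the channel and a change in the adults cannot be told apart. The labelled stage was checked against markers. All 10 germline markers, 9 of 10 oocyte markers and 7 of 10 sperm markers were called positive and none negative, whereas 6 of 9 moulting markers were called negative and none positive. Of 10 intestine markers 5 were called positive and 1 negative, the negative call being gcy-28, which also acts in neurons. The 4 not called were elt-7 at -0.50, elt-2 at -0.38, ifb-2 at -0.002 and asp-1 at 0.26. Of 10 neuron markers 8 were called negative. Of 8 markers of zygotic expression in embryos 4 were called negative and none positive, with a median of -0.49. In whole animals, fewer cells of a type and less RNA per cell cannot be told apart. Pairs of arrays had a Pearson's r between 0.659 and 0.755 across probes. Preps 3 and 4, whose titles carry one date, had 0.755, and preps 2 and 4, whose titles do not, had 0.750.

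Most of the fatty acid genes differed from the reference, and more of them upwards than downwards. Each gene's mean was tested against 0 with limma, and a gene is said to be called where its p, adjusted by Benjamini-Hochberg for 14935 genes, was under 0.05. Of the 59 genes 31 were called positive and 14 negative, while 14 were not called, and the 45 calls make 76.3% of the genes against 44.5% of all genes tested. Positive calls made up 52.5% of the fatty acid genes against 23.2% of all genes, and negative calls 23.7% against 21.2%. With a mean of at least 1 in size as well, 15 genes were called positive, where 6.22% of all genes were, and 7 negative, where 8.05% were, which together made 22 of 59 against 14.3%. The median of the mean log2 ratios was 0.47 (SD of the 4 array medians 0.06), against 0.064 over all genes tested. The median size of the mean log2 ratio, without its sign, was 0.79 for these genes and 0.43 for all genes. All 45 called genes had a ratio of the same sign on all 4 arrays, as did 6402 of the 6639 genes called over all genes tested. All 59 had a value on every array, as did 14639 of the 14935 genes tested.

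**Figure D1:**
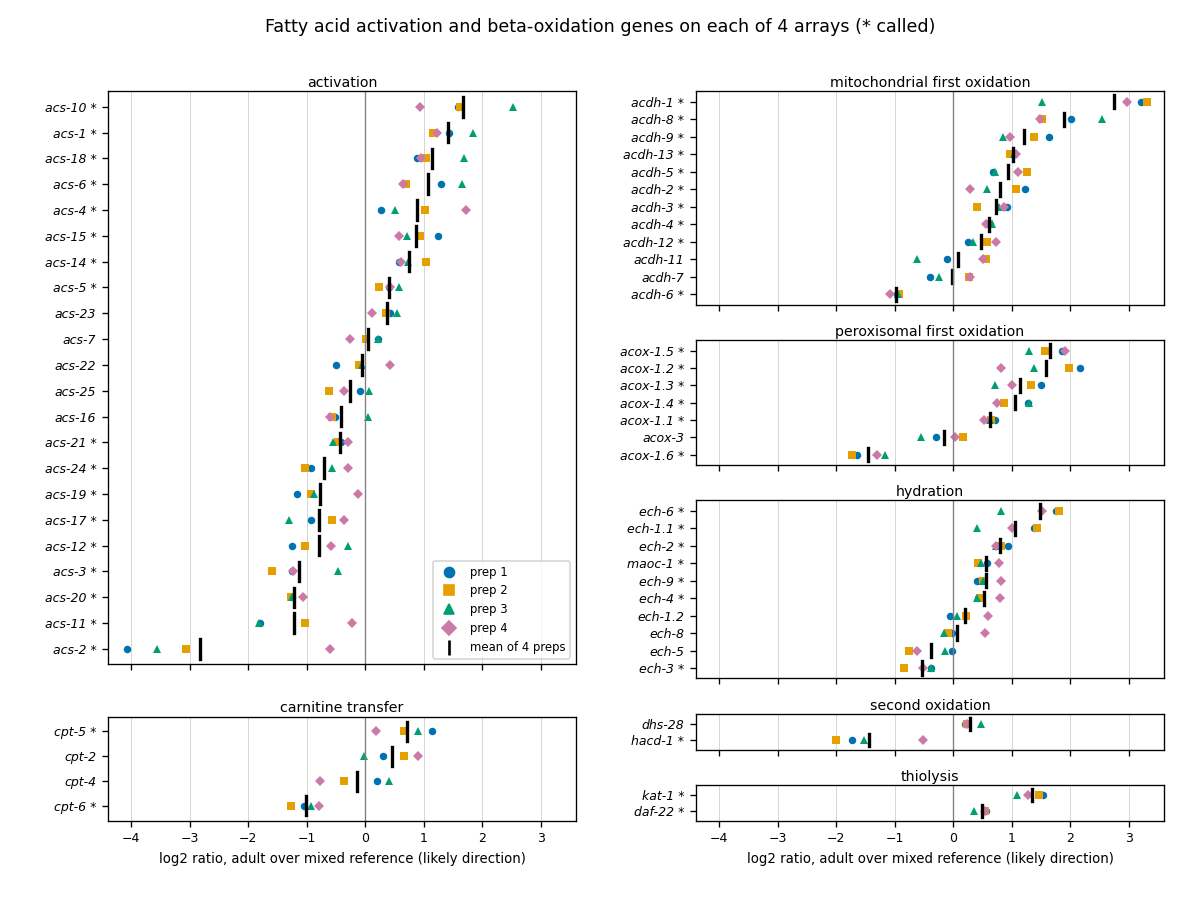
The log2 ratio (adult over mixed reference, likely direction) of each of the 59 genes is plotted on the horizontal axis, with 1 coloured point per prep and a black bar for the mean of the 4 preps. Genes are grouped by enzymatic role and sorted by their mean, and an asterisk marks the 45 genes called by limma. The dehydrogenases and oxidases lie mostly right of 0, the acyl-CoA synthetases spread to both sides, and acs-2 has the lowest mean and acdh-1 the highest.

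The steps differed in how their genes were spread around 0. The acyl-CoA dehydrogenases had 9 of 12 genes called positive and 1 negative, with a median of 0.76. The acyl-CoA oxidases had 5 of 7 called positive and 1 negative, with a median of 1.05. Of the hydratases of the ech family and maoc-1, 6 of 10 were called positive and 1 negative, with a median of 0.54. The acyl-CoA synthetases went both ways, with 8 of 22 called positive, 9 negative and 5 not called, and a median of -0.16. Of all genes tested, 23.2% were called positive and 21.2% negative. The same shares were 75% and 8.33% for the dehydrogenases, 71.4% and 14.3% for the oxidases and 60% and 10% for the hydratases. For the synthetases they were 36.4% and 40.9%. The differences between these families were not tested.

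**Figure D2:**
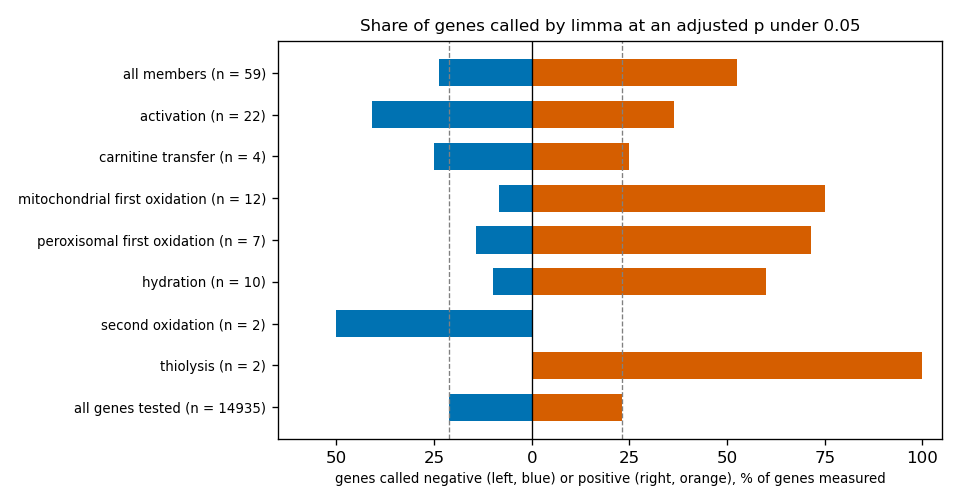
The bars give the share of the genes measured in each role that limma called positive (orange, right) or negative (blue, left), in percent. Dashed lines mark the shares over all genes tested, 23.2% positive and 21.2% negative. Positive calls reach 75% of the acyl-CoA dehydrogenases and 36.4% of the acyl-CoA synthetases, and the roles with 2 to 4 genes rest on few values.

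Among the acyl-CoA synthetases, acs-2 had the lowest mean of all 59 genes. This mitochondrial synthetase is known as a target of the nuclear receptor NHR-49 that is induced by fasting. Its log2 ratio was -4.08, -3.07, -3.56 and -0.61 on preps 1 to 4, a mean of -2.83 ± 1.54 (SD, n = 4; 7.12-fold lower in adults, limma adjusted p = 0.0023). All 4 preps were below 0, but prep 4 lay far closer to it than the others, and without prep 4 the mean was -3.57. The synthetase gene acs-11 showed the same order at its upper end, with -1.81, -1.03, -1.81 and -0.23 and a mean of -1.22 ± 0.76 (adjusted p = 0.0067).

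Of the synthetases known from the body surface, acs-20 and acs-3 were called negative and acs-22 was not called. acs-20 encodes a homolog of the mammalian fatty acid transport proteins that is needed for the cuticle barrier. It had -1.26, -1.28, -1.26 and -1.07 on preps 1 to 4, a mean of -1.22 ± 0.10 (adjusted p = 0.00029). The preps were nearly alike, in contrast to acs-2. Its relative acs-22, with which it shares that role, had values from -0.50 to 0.42 and a mean of -0.06 ± 0.38 (adjusted p = 0.80), so that its interval of -0.46 to 0.34 includes 0. acs-3, which acts in the epidermal seam cells to limit fat uptake through the nuclear receptor NHR-25, had -1.26, -1.60, -0.47 and -1.24, a mean of -1.14 ± 0.48 (adjusted p = 0.0023). The receptor gene nhr-25 itself had -1.17, -1.76, -0.75 and -0.98, a mean of -1.17 ± 0.43 (adjusted p = 0.0016). Both were lowest on prep 2 and highest on prep 3. Of all genes with 4 values, 21.3% were lowest on prep 2 and 22.7% highest on prep 3. The moulting markers, many of them epidermal, had array medians of -2.17, -2.09, -1.19 and -1.70, and their part in these ratios was not tested.

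The positive end of the family was led by acs-10, with 1.58, 1.62, 2.53 and 0.94 on preps 1 to 4 and a mean of 1.67 ± 0.66 (adjusted p = 0.00099). acs-1, which activates the branched-chain fatty acids that worms make for growth, had 1.43, 1.15, 1.85 and 1.22, a mean of 1.41 ± 0.31 (adjusted p = 0.00035). The 2 other synthetases with a mean above 1 were acs-18, at 0.88, 1.04, 1.69 and 0.96, and acs-6, at 1.30, 0.70, 1.65 and 0.65. Their means were 1.14 ± 0.37 (adjusted p = 0.0013) and 1.07 ± 0.48 (adjusted p = 0.0031). These 4 genes were all highest on prep 3, with 1.65 to 2.53, and no prep fell below 0. Prep 3 was the highest array for 22.7% of all genes with 4 values.

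acs-4, whose product supplies acyl-CoA for protein myristoylation and acts in germline sex determination, had 0.27, 1.01, 0.50 and 1.72 on preps 1 to 4. Its mean was 0.88 ± 0.64 (adjusted p = 0.017), and without prep 4 it was 0.59 and no longer called (adjusted p = 0.051). The array medians of the 10 germline markers were 0.84, 1.15, 1.17 and 1.80, also lowest on prep 1 and highest on prep 4, and the part of the germline share in acs-4 was not tested. acs-7, which attaches building blocks to ascarosides, had values between -0.27 and 0.21 and was not called (adjusted p = 0.83), and acs-19, a synthetase of the acetyl-CoA type, had a mean of -0.78 ± 0.45 (adjusted p = 0.011). The remaining called synthetases were acs-14, acs-15 and acs-5 with means of 0.74, 0.86 and 0.41, and acs-12, acs-17, acs-24 and acs-21 with means of -0.80, -0.79, -0.71 and -0.43. The call of acs-5 was lost after median centring (0.36, adjusted p = 0.071) and whenever 1 prep was left out (0.35 to 0.46), and that of acs-21 without prep 1, 2 or 3 (-0.44 to -0.39). The genes acs-16, acs-25 and acs-23 were not called, at -0.41, -0.26 and 0.36. RefSeq lists acs-23 as a pseudogene, and acs-16 was called without prep 3, at -0.56 (adjusted p = 0.031).

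The carnitine acyltransferase genes went in different directions. cpt-6 had -1.05, -1.28, -0.94 and -0.80 on preps 1 to 4, a mean of -1.01 ± 0.20 (adjusted p = 0.00099). cpt-5 had 1.14, 0.66, 0.89 and 0.18, a mean of 0.72 ± 0.41 (adjusted p = 0.013), which lost its call without prep 3 (0.66, adjusted p = 0.054). All values of cpt-6 were below 0 and all of cpt-5 above it. cpt-2, the homolog of the mammalian enzyme of the inner mitochondrial membrane, had 0.30, 0.66, -0.02 and 0.90, a mean of 0.46 ± 0.40 (adjusted p = 0.067), and was called without prep 3 at 0.62 (adjusted p = 0.038) and, at 0.47, with preps 3 and 4 averaged (adjusted p = 0.049). cpt-4 had 0.19, -0.37, 0.41 and -0.78 and was not called (mean -0.14 ± 0.54, adjusted p = 0.62). The preps disagreed in sign for cpt-2 and cpt-4. The related genes cpt-1 and cpt-3 were not analysed here.

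Acyl-CoA dehydrogenases carry out the first oxidation in mitochondria, and acdh-1 had the highest mean of all 59 genes. Its enzyme opens the propionate shunt, an alternative route of propionate breakdown that worms switch on when vitamin B12 is low. The log2 ratio was 3.21, 3.31, 1.52 and 2.97 on preps 1 to 4, a mean of 2.75 ± 0.83 (6.73-fold higher in adults, adjusted p = 0.00021). Prep 3 was lowest, and every prep was above 1.5. Next came acdh-8, with 2.01, 1.52, 2.55 and 1.49 and a mean of 1.89 ± 0.50 (adjusted p = 0.00024).

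Of the other dehydrogenase genes, acdh-9 had 1.63, 1.38, 0.84 and 0.96, a mean of 1.20 ± 0.36 (adjusted p = 0.00098). acdh-13 varied little, with 1.00, 0.96, 1.04 and 1.07 on preps 1 to 4 and a mean of 1.02 ± 0.05 (adjusted p = 0.00063). acdh-2 had 1.23, 1.07, 0.57 and 0.29, a mean of 0.79 ± 0.44 (adjusted p = 0.0097). acdh-3, acdh-4 and acdh-5, all on chromosome I like acdh-1, had means of 0.74, 0.62 and 0.94 and were called, and 2 probes of acdh-3 had means of 0.83 and 0.64. acdh-12 had a mean of 0.47 ± 0.22 (adjusted p = 0.029), and its call was lost without prep 2, 3 or 4 (0.39 to 0.52). acdh-6 was the exception of the family, with -0.96, -0.93, -0.95 and -1.09 on preps 1 to 4 and a mean of -0.98 ± 0.07 (adjusted p = 0.00077). acdh-11, known from heat adaptation, where it acts on the desaturase gene fat-7, had -0.11, 0.56, -0.63 and 0.50 and was not called (adjusted p = 0.78). The X-linked acdh-7 had a mean of -0.03 ± 0.35 (adjusted p = 0.91), the values of its 2 probes lying close to each other.

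Acyl-CoA oxidases take the place of the dehydrogenases in peroxisomes. The 4 genes acox-1.1 to acox-1.4 lie next to one another on chromosome I, and all were called positive. acox-1.2 had 2.17, 1.98, 1.39 and 0.81 on preps 1 to 4, a mean of 1.59 ± 0.61 (3.00-fold higher in adults, adjusted p = 0.0010). acox-1.3 had 1.50, 1.32, 0.71 and 1.00, a mean of 1.13 ± 0.35 (adjusted p = 0.0012), and acox-1.4 had 1.28, 0.87, 1.29 and 0.75, a mean of 1.05 ± 0.28 (adjusted p = 0.0012). acox-1.1, the oxidase with the broadest part in ascaroside synthesis, had the lowest values of the 4, with 0.71, 0.64, 0.63 and 0.53 and a mean of 0.63 ± 0.08 (adjusted p = 0.0060). The probe sequences are not known here, and near-identical family members may share signal, so values of single oxidase genes are uncertain.

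The oxidase genes on other chromosomes did not move together. acox-1.5 on chromosome III had 1.86, 1.57, 1.29 and 1.90 on preps 1 to 4, a mean of 1.65 ± 0.29 (adjusted p = 0.00014). acox-1.6 on the X chromosome had -1.65, -1.73, -1.17 and -1.31, a mean of -1.46 ± 0.27 (2.76-fold lower in adults, adjusted p = 0.00024). No prep of the first was below 1.2 and none of the second above -1.1. acox-3, on chromosome IV, had -0.29, 0.17, -0.56 and 0.02 and was not called (mean -0.17 ± 0.33, adjusted p = 0.44).

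The later steps of the peroxisomal pathway, which complete ascaroside side chains, had small ratios. The hydratase gene maoc-1 had 0.57, 0.42, 0.47 and 0.79 on preps 1 to 4, a mean of 0.56 ± 0.16 (adjusted p = 0.012). The dehydrogenase gene dhs-28 had 0.20, 0.24, 0.47 and 0.24, a mean of 0.29 ± 0.12 (adjusted p = 0.12). The thiolase gene daf-22, named for the missing dauer pheromone of its mutants, had 0.55, 0.55, 0.35 and 0.53, a mean of 0.50 ± 0.10 (adjusted p = 0.017). Every prep was above 0 for all 3 genes, although the call of daf-22 was lost without prep 1, 2 or 4 (0.48, adjusted p = 0.051 to 0.067). Taking these 3 genes with all 7 oxidase genes, 7 of 10 were called positive (70% against 23.2% of all genes) and 1, acox-1.6, was called negative (10% against 21.2%), and the median was 0.60.

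The hydratases of the ech family were mostly positive, led by ech-6 and ech-1.1. ech-6, which acts after acdh-1 in the propionate shunt, had 1.76, 1.80, 0.81 and 1.52 on preps 1 to 4, a mean of 1.47 ± 0.46 (2.77-fold higher in adults, adjusted p = 0.00065). ech-1.1 had 1.37, 1.43, 0.40 and 1.01, a mean of 1.05 ± 0.47 (adjusted p = 0.0032). Both were lowest on prep 3, as were 26.6% of all genes with 4 values. ech-1.1 and ech-1.2 are homologs of the alpha subunit of the mammalian mitochondrial trifunctional protein, and ech-1.2 had -0.05, 0.22, 0.06 and 0.59 and was not called (mean 0.20 ± 0.28, adjusted p = 0.31). The difference between this pair was not tested.

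The other ech genes lay closer to 0. ech-2, ech-9 and ech-4 had means of 0.80, 0.56 and 0.52 and were called. The 2 genes with negative means were ech-3, with -0.39, -0.84, -0.38 and -0.52 and a mean of -0.53 ± 0.21 (adjusted p = 0.019), and ech-5, which was not called (mean -0.39 ± 0.36, adjusted p = 0.096). ech-8, next to ech-9 on chromosome IV, had a mean of 0.07 ± 0.32 (adjusted p = 0.75). The call of ech-9 was lost without prep 4 (0.47, adjusted p = 0.052), that of ech-4 without prep 2 or 4 (0.54 and 0.43) and that of ech-3 without prep 2 (-0.43) or prep 4 (-0.54, adjusted p = 0.050).

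Of the genes of the last mitochondrial steps, hacd-1 and kat-1 went opposite ways, and a single gene does not give the direction of a step. hacd-1, a 3-hydroxyacyl-CoA dehydrogenase, had -1.74, -2.01, -1.53 and -0.52 on preps 1 to 4, a mean of -1.45 ± 0.65 (2.73-fold lower in adults, adjusted p = 0.0018). kat-1, the thiolase that ends the cycle and that is known to act with the tubby homolog tub-1 on fat storage, had 1.53, 1.46, 1.10 and 1.28, a mean of 1.34 ± 0.20 (2.53-fold higher in adults, adjusted p = 0.00025). A further probe, annotated to both kat-1 and T02G5.4 and left out of the fit, had a mean of 1.46. tub-1 had a mean of -0.53 ± 0.06 (adjusted p = 0.012), which lost its call without prep 2 (-0.52, adjusted p = 0.051).

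The shunt genes acdh-1 and ech-6 were set beside the other genes of propionate breakdown from a list of genes of propionate, branched-chain amino acid and glyoxylate metabolism. Genes of this list outside its 3 largest means were picked for the text after their values were seen. hach-1, of the hydrolase step that follows ech-6, had 1.29, 1.40, 0.46 and 1.03 on preps 1 to 4, a mean of 1.04 ± 0.42 (adjusted p = 0.0026). hphd-1, of the next step, had 1.87, 1.47, 0.12 and 1.40, a mean of 1.21 ± 0.76 (adjusted p = 0.0070). All 4 of these shunt genes were called positive and had their lowest value on prep 3, which was the lowest array for 26.6% of all genes with 4 values and for 34.9% of all positive calls. alh-8, assigned to the last step of the shunt, had -0.64, -0.51, 0.28 and 0.01 and was not called (adjusted p = 0.37), with its lowest value on prep 1 and its highest on prep 3.

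The enzymes of the vitamin B12-dependent route had means below 0. The carboxylase subunit genes pcca-1 and pccb-1 had means of -0.44 ± 0.39 (adjusted p = 0.072) and -0.44 ± 0.36 (adjusted p = 0.064). Both were called without prep 4, at -0.60 and -0.57, and pccb-1 also when the arrays were centred and scaled (-0.49, adjusted p = 0.046). The epimerase gene mce-1 had a mean of -0.51 ± 0.24 (adjusted p = 0.024), which lost its call without prep 1 or 2 (-0.41 and -0.50). The mutase gene mmcm-1, with -0.83, 0.02, -0.05 and 0.55, was not called (adjusted p = 0.79). mmaa-1, of the vitamin's handling for the mutase, had a mean of 0.31 ± 0.41 and was not called (adjusted p = 0.20). The 4 enzyme genes had their lowest value on prep 1, as did alh-8 and 26.3% of all genes with 4 values. By contrast, acdh-1, ech-6, hach-1 and hphd-1 were lowest on prep 3, and this difference was not tested.

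**Figure D3:**
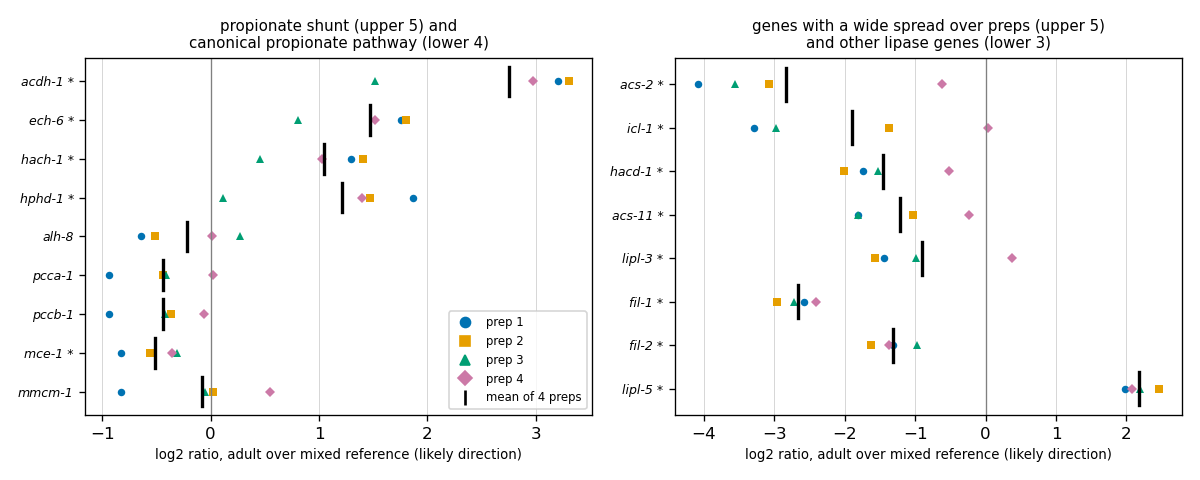
The log2 ratio (adult over mixed reference, likely direction) of single genes is plotted on the horizontal axis with 1 coloured point per prep, a black bar for the mean of the 4 preps and an asterisk for a call by limma. On the left, acdh-1, ech-6, hach-1 and hphd-1 lie right of 0 on every prep with prep 3 lowest, while the genes of the vitamin B12-dependent route lie around or below 0. On the right, prep 4 is the highest value of acs-2, icl-1, hacd-1, acs-11 and lipl-3, which were chosen after their values were seen, while fil-1, fil-2 and lipl-5 have SDs of 0.24, 0.27 and 0.21.

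Breakdown genes of branched-chain amino acids, whose products enter the same oxidation steps, were called positive. ivd-1, the isovaleryl-CoA dehydrogenase gene, had 1.30, 1.53, 1.39 and 1.66 on preps 1 to 4, a mean of 1.47 ± 0.16 (adjusted p = 0.00014). mccc-1, a subunit gene of the carboxylase that follows it in leucine breakdown, had 1.25, 1.31, 1.12 and 1.57, a mean of 1.31 ± 0.19 (adjusted p = 0.00027). dbt-1, bcat-1, bckd-1A and bckd-1B, of the aminotransferase and dehydrogenase steps, had means of 1.15 (3 arrays), 0.85, 0.58 and 0.43 and were called. The call of bckd-1A was lost without prep 3 or 4 (0.42 and 0.51) and when the arrays were centred and scaled (0.57), and that of bckd-1B whenever 1 prep was left out (0.42 to 0.44). Over the whole list 8 of 15 genes were called positive, 53.3% against 23.2% of all genes, and 2 negative, 13.3% against 21.2%, with a median of 0.43.

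The wide spread of acs-2 over the preps was shared by some genes of other lists. icl-1, the glyoxylate cycle enzyme that lets worms make sugar from fat, had -3.29, -1.37, -2.98 and 0.03 on preps 1 to 4, a mean of -1.90 ± 1.54 (adjusted p = 0.014), and lost its call without prep 3 (-1.54, adjusted p = 0.071). The lysosomal lipase gene lipl-3, known to be induced by fasting, had -1.44, -1.57, -0.99 and 0.37, a mean of -0.91 ± 0.89 (adjusted p = 0.038), and lost its call without prep 1, 2 or 3 (-0.88 to -0.69). As with acs-2, hacd-1 and acs-11, prep 4 had the highest value of each. Of the 14 fatty acid genes called negative, 9 were highest on prep 4, as were 25.2% of all negative calls with 4 values. Other lipase genes had less spread. fil-1 and fil-2, named as fasting-induced lipases, had means of -2.67 ± 0.24 (adjusted p = 3.2e-05) and -1.32 ± 0.27 (adjusted p = 0.00038), with all preps between -2.97 and -2.41 and between -1.62 and -0.97. lipl-5, another lysosomal lipase gene, had 1.98, 2.46, 2.19 and 2.08, a mean of 2.18 ± 0.21 (adjusted p = 4.1e-05).

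Among regulators of fat metabolism, 6 of 14 measured genes were called negative, 42.9% against 21.2% of all genes, and 1 positive, 7.14% against 23.2%, with a median of -0.38. The largest means were those of nhr-25, given above, of aak-2, a catalytic subunit of the energy sensor AMPK, at -0.96 ± 0.46 (adjusted p = 0.0046), and of hlh-30, a regulator of lysosomal lipases and autophagy, at -0.82 ± 0.71 (adjusted p = 0.029). hlh-30 lost its call without prep 1 (-0.53), prep 2 (-0.75) or prep 3 (-0.92). nhr-49, the receptor that drives acs-2, had -0.84, -0.53, -0.70 and -0.13 on preps 1 to 4, a mean of -0.55 ± 0.31 (adjusted p = 0.024), and lost its call without prep 1, 2 or 3 (-0.56 to -0.45). It was highest on prep 4, as were acs-2, hlh-30, mdt-15 and sbp-1, but not nhr-25 or aak-2. Prep 4 was the highest array for 29.9% of all genes with 4 values, and a link between nhr-49 and acs-2 was not tested. The coactivator gene mdt-15 had -1.19, -0.75, -0.28 and 0.78 and was not called (adjusted p = 0.34). Without prep 4 it was called at -0.74 (adjusted p = 0.033). sbp-1, the sterol response element binding protein gene, had a mean of -0.13 ± 0.29 (adjusted p = 0.52).

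The genes of fatty acid and triglyceride synthesis had a median of -0.36. Of 18 measured genes 7 were called negative, 38.9% against 21.2% of all genes, and 4 positive, 22.2% against 23.2%. The lowest was fat-3, a desaturase gene of polyunsaturated fatty acid synthesis, at -2.54 ± 0.55 (adjusted p = 8.4e-05), followed by fat-4 at -1.07 ± 0.44 (adjusted p = 0.0025). fat-2 and fat-6 had means of -0.96 each and were called. fasn-1, the fatty acid synthase gene, had -1.54, -0.99, -0.12 and -0.26 on preps 1 to 4, a mean of -0.73 ± 0.66 (adjusted p = 0.037), and lost its call without prep 1 or 2 (-0.46 and -0.64, adjusted p = 0.11 in both fits). pod-2, the acetyl-CoA carboxylase gene of the step before, had -1.49, -1.25, 0.26 and 0.40 and was not called (mean -0.52 ± 0.99, adjusted p = 0.22). Both genes were lower on preps 1 and 2 than on preps 3 and 4. Preps 3 and 4 share a title date that preps 1 and 2 do not carry, so prep and date cannot be told apart.

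Among peroxisome assembly and ABC transporter genes 5 of 16 were called positive (31.2% against 23.2% of all genes) and 1 negative (6.25% against 21.2%). The remaining 10 were not called, which left 37.5% called against 44.5% of all genes, with a median of 0.05. The import receptor gene prx-5 had a mean of -0.33 ± 0.12 (adjusted p = 0.076), and was called at -0.39 when the arrays were centred and scaled (adjusted p = 0.048). The largest means were those of prx-11 (0.67), pmp-1 (0.62) and prx-14 (0.57). These calls were lost without prep 2 for prx-11 (0.57), without prep 3 (0.47) or 4 (0.61) for pmp-1, and without prep 1 (0.60), 2 (0.48) or 4 (0.42) for prx-14, which also lost it when the arrays were centred (0.53). Of 6 acyl-CoA binding protein genes acbp-1 and acbp-3 were called at 0.86 and 0.47 and maa-1 at -0.67. That made 33.3% positive against 23.2% of all genes and 16.7% negative against 21.2%. In the same list acbp-5, at -0.48, was called only without prep 1 (-0.79). Among 4 genes of carnitine supply and electron transfer, gbh-2, which encodes an enzyme of carnitine synthesis, had a mean of -1.74 ± 0.16 (adjusted p = 7.2e-05). dif-1, a mitochondrial carrier gene, was called at 0.46 and lost its call without prep 1, 2 or 3 (0.38 to 0.50), and let-721, at 0.34, was not called (adjusted p = 0.11). Of 14 lipolysis and lipid droplet genes 5 were called negative, 35.7% against 21.2% of all genes, and 1 positive, 7.14% against 23.2%. In all 42.9% were called against 44.5% of all genes. The triglyceride lipase gene atgl-1 was not called (0.30 ± 0.51, adjusted p = 0.25).

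**Figure D4:**
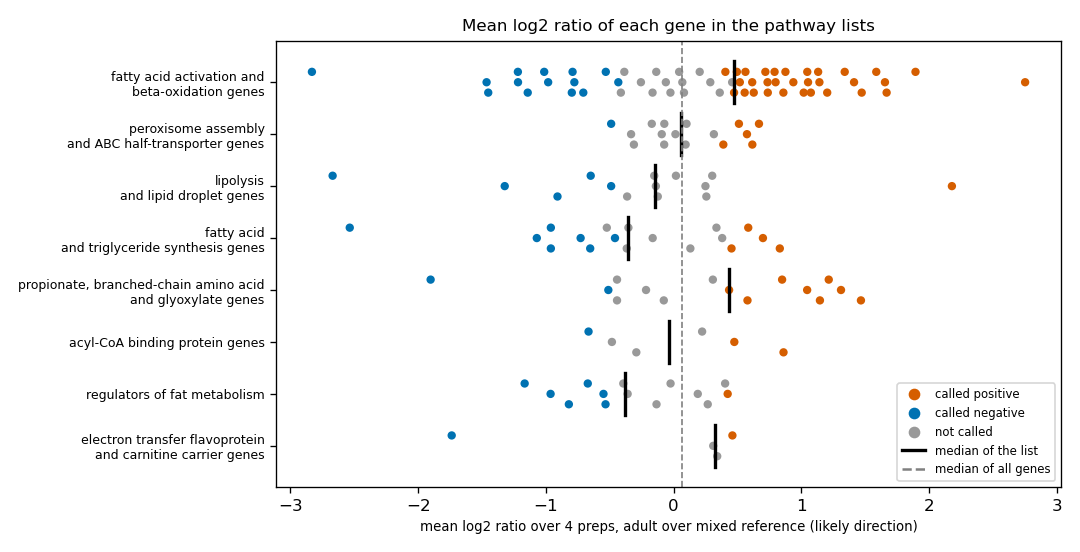
Each point is the mean log2 ratio over the preps of 1 gene (adult over mixed reference, likely direction), coloured by limma's call, with a black bar at the median of each list and a dashed line at the median of all genes, 0.064. The medians of all 59 fatty acid genes, 0.47, and of the propionate and branched-chain list, 0.43, lie right of the dashed line. Those of the synthesis genes, -0.36, and of the regulators, -0.38, lie left of it.

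By chromosome, none of the 5 X-linked fatty acid genes was called positive and 2 were called negative (acox-1.6 and acs-17), while 9.43% of all X-linked genes were called positive and 31.2% negative. On the autosomes 31 of 54 were called positive, 57.4%, against 25.6% of all autosomal genes. A further 12 were called negative, 22.2%, against 19.5%. On chromosome II 10 of 12 were called positive, where 690 of all its 2644 genes were, and 1 negative, where 529 were. On chromosome V 5 of 13 were called positive, where 653 of all its 3843 genes were, and 7 negative, where 810 were. Neighbouring members had ratios of one sign in the acox cluster, in acdh-12 and maoc-1, which lie side by side on chromosome II, and in acs-6 and kat-1, which have 3 genes between them. The adjacent ech-9 and ech-8 differed, ech-9 being above 0 on all 4 preps and ech-8 below 0 on preps 1 to 3. With groups this small, these counts are given as a description.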

How the data were processed

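The deposited table gives 1 log2 ratio per probe and array, and nearly all values are the log2 of a ratio rounded to 3 decimals. For scanning, correction, filtering and normalization, nothing is given in the labels, and without intensities it is unknown which spots were near background. Each array held 21243 to 21501 values. Of 21632 probes, 16450 had 1 gene symbol in GEO's platform annotation, 247 several and 4935 none. Symbols were updated by gene ID (16360 probes) or accession (5) through the RefSeq genes of assembly WBcel235, and 85 kept the annotation's symbol. All 62 probes of the 59 genes had the same symbol in both tables. RefSeq holds 64 genes of these names, of which acdh-10, acs-13, cpt-1, cpt-3 and ech-7 were not analysed here.

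Probes with 1 gene were averaged per gene and array. The fit used limma 3.58.1 (R 4.3.3) on genes measured on 3 or more arrays (intercept, lmFit, eBayes, two-sided, Benjamini-Hochberg adjustment over 14935 genes), tested first on simulated data. All 4 arrays form 1 group, and the reference's own spread is left out. Values are means ± SD over the arrays, intervals are limma's 95% intervals, and precision is limited by having 4 arrays. Alternatives covered centring, scaling, the minimum number of arrays, the prior, array weights, probe averaging, the threshold and leaving out each prep. The members and lists were chosen with earlier results of these data known. Named with values on every array were called members with a mean of at least 1 in size, all members of small classes and the extreme members of acs, acdh and ech, as well as the 3 largest means of each other list. Further genes were named for a known role or a call that changed when 1 prep was left out, and some list genes after their values were seen. No promoter or probe sequence was used here, and the planned search of promoters for motifs was not run.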

Additional observations from a re-analysis of the deposited data

Results flagged for a closer look

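For 104 genes of the members and lists, Dixon's test (95% level) looked for 1 prep apart from the remaining 3, and 6 were found, where chance gives about 5.2 at 1 in 20. Of these, 5 were fatty acid genes. acs-16 had 0.037 on prep 3, with the others from -0.60 to -0.52. acs-20 had -1.07 on prep 4, with the others from -1.28 to -1.26. daf-22 had 0.35 on prep 3 and 0.53 to 0.55 elsewhere, and dhs-28 had 0.47 on prep 3 and 0.20 to 0.24 elsewhere. ech-4 had 0.79 on prep 4 and 0.40 to 0.46 elsewhere. The desaturase gene fat-7 had -0.089 on prep 1 and -0.48 to -0.42 on the others. The wide spread of acs-2 did not meet the criterion.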

How the results depend on the processing

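Among the 59 fatty acid genes 45 were called, 31 positive and 14 negative. These counts stayed within 1.5 times with centred or scaled arrays, a minimum of 2 or 4 arrays, a robust prior, weighted arrays and probe medians. The same held for an adjusted p under 0.01 (34 calls). A fit of single probes gave 47 calls, counted over the 62 probes rather than over genes. Leaving out 1 prep gave 38 to 43 calls, 25 to 29 of them positive and 12 to 14 negative, a median of 0.427 to 0.543 and 4982 to 5796 calls over all genes. Adding a mean of at least 1 in size left 22 calls, 15 positive and 7 negative, and 2132 over all genes, a subset by construction. An adjusted p under 0.01 left 3946 of the 6639 calls over all genes. No called fatty acid gene changed sign. All 45 had one sign on all 4 arrays, so leaving out, weighting or averaging preps could not have changed it. Of the 45, 36 kept their call in every refit. All 22 with a mean of at least 1 in size kept it with each prep left out. How many of the calls over all genes were kept in this way was not counted. Uncalled genes near 0 changed sign: acdh-11 was at -0.015 when the arrays were centred and scaled and at -0.080 to 0.318 with 1 prep left out, and acs-7 at -0.004 when centred and at -0.014 to 0.146. With 1 prep left out, acdh-7 ranged from -0.126 to 0.097, acs-22 from -0.221 to 0.084, cpt-4 from -0.317 to 0.078, ech-8 from -0.089 to 0.143 and mmcm-1 from -0.287 to 0.173. The cause was not tested. The title date could not be used as a random block, since 3 dates on 4 arrays allowed no estimate of the correlation. Averaging preps 3 and 4 instead, chosen after seeing the data, gave 45 calls of a partly different set, 30 positive and 15 negative. There acdh-12 (0.45, adjusted p = 0.051) and acs-5 (0.38, adjusted p = 0.079) lost their calls and cpt-2 (0.47, adjusted p = 0.049) and acs-16 (-0.46, adjusted p = 0.048) gained one, and of the list genes named bckd-1A (0.46, adjusted p = 0.097) lost its call. Background correction and a filter on dim probes could not be tried without intensities. No paired analysis was possible because all 4 arrays form 1 group.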
